A study of Homo sapiens with 4 samples.

Results

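The 9 genes examined here encode microtubule plus-end tracking proteins and their close regulators: CLASP1, CLASP2, CLIP1, MAPRE1, MAPRE2, MAPRE3, CKAP5, APC and SLAIN2. They were listed by name and found by gene symbol. The list names no measured value, but it was drawn up with earlier results of these data known. All 9 were among the 62700 gene identifiers counted in this series, and all 9 were among the 18139 genes with enough counts to be tested. The study names CLASP2 for its choice of poly(A) site, the place where a messenger RNA is cut and given its tail.

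The cells were HEK293T, a human embryonic kidney line, transiently transfected with a construct for RPB1, the catalytic large subunit of polymerase II. In the T4A group every heptad repeat of the RPB1 C-terminal domain (CTD) carried alanine in place of threonine at position 4, and in the WT group the CTD had its wild-type sequence. Both constructs resist α-amanitin, and both groups received this toxin at 2.5 µg/ml for 48 hours, starting 1 day after transfection, to remove the cells' own RPB1. Poly(A) RNA was sequenced from 2 libraries per group, with 23465029 and 19257217 counts in T4A libraries and 33063535 and 24695291 in WT libraries. POLR2A, the gene of RPB1, stood at 5378 and 5477 counts per 1000000 (CPM) in T4A libraries, against 3772 and 2764 CPM in WT libraries (edgeR log2 fold change 0.73, adjusted p = 7.23e-07). These counts sum the construct and the cells' own gene and cannot tell a T4A from a WT repeat, and the part of the unequal POLR2A level in the results below was not tested. Of 8 genes known from HEK293 cells, 7 had counts in every library, and LHX1 had only 2 counts in a single WT library. Of 7 genes of blood, vessel, fibroblast, liver and erythroid cells, 2 had counts in every library, COL1A2 was at 0 throughout, and their summed level was 0.793 and 2.18 CPM in T4A libraries and 1.19 and 1.52 CPM in WT libraries.

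Microtubules grow and shrink mainly at their plus ends. The end-binding proteins EB1, EB2 and EB3, encoded by MAPRE1, MAPRE2 and MAPRE3, recognise the growing end and recruit most other plus-end proteins to it, including CLIP-170 (CLIP1), the CLASPs, SLAIN2 and APC. CKAP5 (ch-TOG) is a polymerase that adds tubulin to the end, SLAIN2 links it to the EB proteins, and CLASPs stop shrinkage and help anchor microtubules at the cell cortex, the Golgi and kinetochores.

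Stretches upstream of annotated starts are shown for the 4 members that fell in T4A cells and for MAPRE3, which did not. CLASP2, MAPRE2 and MAPRE3 have more than 1 annotated start, of which 1 is shown. Which start polymerase II used was not measured. Each is the window of 100 bases nearest to the start that no annotated exon of that gene enters. It is read 5′ to 3′ on the gene's own strand from RefSeq (GRCh38). It lies 103 to 202 bases before the CLASP2 start at 33718254, 29 to 128 before that of CKAP5 and 1 to 100 before the others. For MAPRE2 the start is 35041413, and its window lies inside the gene, downstream of the other annotated start at 34977027. Capitals mark a CCAAT box (CCAAT or its complement ATTGG) or a GC box (GGGCGG or its complement CCGCCC).
CLASP2 (chr3:33718357-33718456, minus strand): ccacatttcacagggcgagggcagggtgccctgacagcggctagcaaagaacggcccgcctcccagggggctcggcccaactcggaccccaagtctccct
MAPRE2 (chr18:35041313-35041412, plus strand): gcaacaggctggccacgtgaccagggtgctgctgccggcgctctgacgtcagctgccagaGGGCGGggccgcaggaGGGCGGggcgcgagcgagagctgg
CLASP1 (chr2:121649463-121649562, minus strand): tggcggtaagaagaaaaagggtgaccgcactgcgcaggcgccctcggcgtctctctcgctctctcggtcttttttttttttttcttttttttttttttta
CKAP5 (chr11:46846309-46846408, minus strand): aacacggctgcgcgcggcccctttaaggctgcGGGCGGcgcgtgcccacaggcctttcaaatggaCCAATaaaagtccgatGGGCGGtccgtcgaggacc
MAPRE3 (chr2:26970537-26970636, plus strand): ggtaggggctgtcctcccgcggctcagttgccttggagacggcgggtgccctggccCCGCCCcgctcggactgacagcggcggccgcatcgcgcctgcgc

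These windows differ from each other in base composition and in the motifs they hold. RefSeq gives 14 starts for the 9 members, and 10 of the 14 had a GC content over 250 upstream bases above the median of all 35116 promoters, which was 58%. A GC box was found on either strand in 8 of the 14, against 42.6% of all promoters of the same length, and a CCAAT box in 7, against 32.0%. The letters TATAAA were found in 2 of the 14, against 10.7% of all promoters, and TTTGAA, the core of a cell cycle element called CHR, in 3, against 13.3%. CLASP2 has 3 annotated starts, at positions 33718254, 33659107 and 33645474 of chromosome 3, whose upstream bases held 62.4%, 46.0% and 33.2% G or C. The counts are per gene and do not tell which of these starts was used.

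T4A was compared with WT by edgeR's quasi-likelihood test over all tested genes, and a gene was called at a Benjamini-Hochberg adjusted p under 0.05. Of the 9 members, CLASP2, MAPRE2, CLASP1 and CKAP5 fell in T4A cells, none rose and 5 were not called. Across all tested genes 13% were called lower and 10.7% higher in T4A. The members' median log2 fold change was -0.30, beside -0.01 over all tested genes. Both T4A libraries lay below both WT libraries for 7 of the 9 members, an order seen for 30.5% of tested genes. MAPRE3 was above WT in both T4A libraries, and the APC groups overlapped. RNA was taken from many cells together, so a loss of a transcript from some cells and less of it in every cell cannot be told apart. CPM values are shares of a library, so falls and rises here are relative to the other genes. A change in total RNA per cell was not measured. The paper calls the 2 libraries of a group biological replicates, though the labels do not say whether they came from separate cultures. The edgeR p-values speak only for these libraries, and they rest on a spread estimated across genes.

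**Figure D1:**
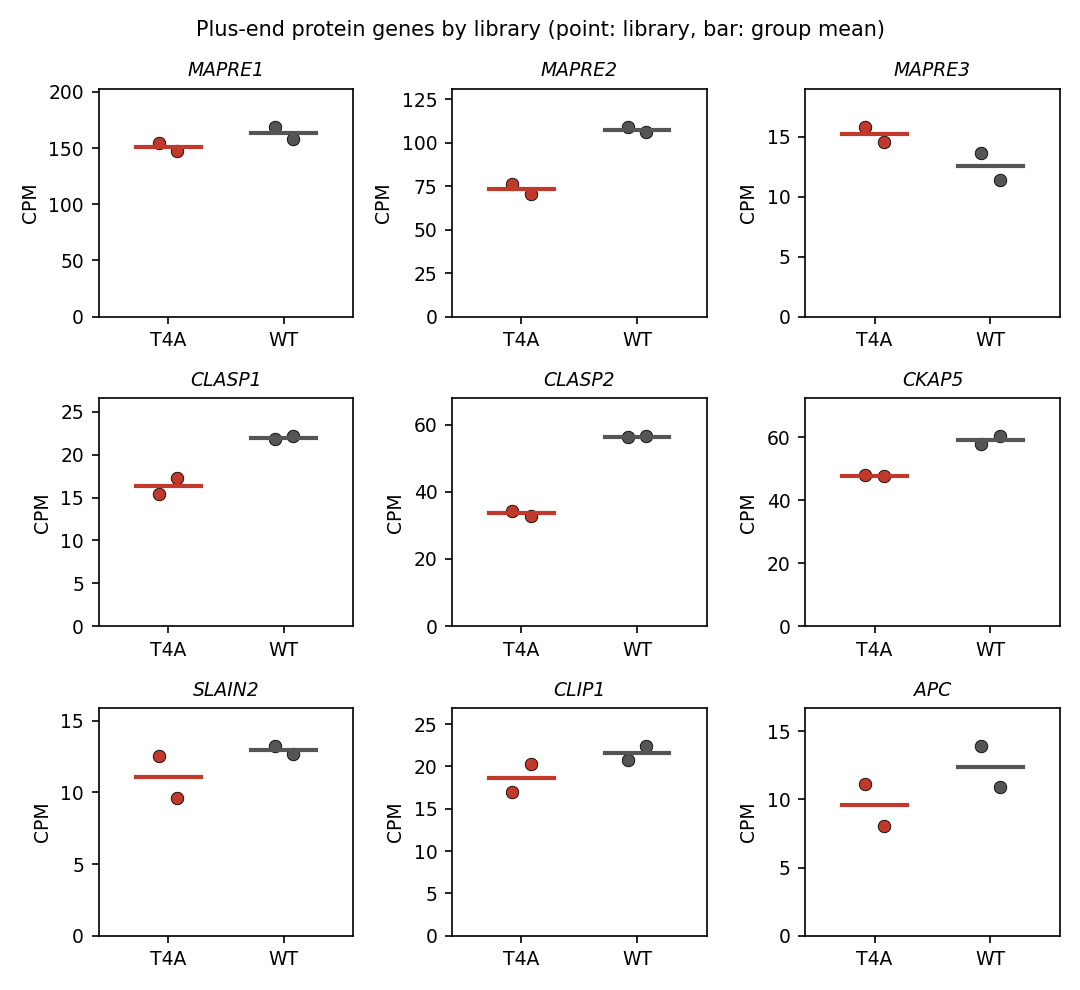
Level of each plus-end gene in CPM (y axis from 0, a separate scale for each gene), with T4A on the left and WT on the right. Points are libraries and bars are group means of 2 libraries. CLASP2 showed the largest relative gap, with 34.1 and 32.9 CPM in T4A and 56.4 and 56.5 CPM in WT.

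CLASP2 (ENSG00000163539.18, chr3:33496245-33718254 on GRCh38) had the lowest log2 fold change of the 9. The paper already lists CLASP2 as down-regulated in T4A cells in its own test of this RNA sequencing. Its level was 34.1 and 32.9 CPM in T4A libraries, from 775 and 619 counts, and 56.4 and 56.5 CPM in WT libraries, from 1890 and 1446 counts. The 2 libraries of each group lay close together and the groups were far apart. The group means were 33.5 ± 0.878 CPM in T4A and 56.4 ± 0.0721 CPM in WT (SD, n = 2), a log2 fold change of -0.75 ± 0.08 (SE), which means that WT was 1.68-fold higher (edgeR adjusted p = 1.18e-06). By p-value CLASP2 ranked 356 of all tested genes, and 7.35% of them had a lower log2 fold change. It stayed called under all 13 alternative settings, with log2 fold changes between -0.83 and -0.46 and a highest adjusted p of 0.000392.

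CLASP1 (ENSG00000074054.21, chr2:121337776-121649462), the paralog that shares most of the known roles of CLASP2, also fell. Its level was 15.4 and 17.3 CPM in T4A libraries and 21.8 and 22.1 CPM in WT libraries, with both T4A values below both WT values. The log2 fold change was -0.43 ± 0.11 (SE, edgeR adjusted p = 0.00905). The call was lost without T4A library 1 (log2 fold change -0.35, adjusted p = 0.0778), WT library 1 (-0.43, adjusted p = 0.0618) or WT library 2 (-0.42, adjusted p = 0.0664), and with the trend of fold change on gene length taken out (-0.18, adjusted p = 0.336). Exons of 2 antisense genes, CLASP1-AS1 and NIFK-AS1, overlap 324 and 105 exonic bases of CLASP1. No use of strand in the counting is stated, so reads there cannot be assigned to one gene, and these bases are 2.94% and 0.95% of the exonic length of CLASP1. Within a library, CLASP2 had 2.22 and 1.90 times the counts of CLASP1 in T4A cells and 2.58 and 2.55 times in WT cells. The ratio differed by -0.32 on the log2 scale, and the groups did not overlap, though the exact two-sided permutation test gave p = 0.33, the smallest value that 2 against 2 libraries allow (adjusted over 6 paralog pairs, 0.666). The difference was -0.21 without T4A library 2 and -0.43 without T4A library 1.

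Of the EB genes, MAPRE2 alone was called. MAPRE2 (ENSG00000166974.13, chr18:34977027-35143470), whose product EB2 binds plus ends more weakly than EB1 and EB3 and is known for roles in cell adhesion and mitosis, fell in T4A cells. It stood at 76.4 and 70.4 CPM in T4A libraries and 109 and 106 CPM in WT libraries. The T4A libraries were well below the WT libraries, with means of 73.4 ± 4.22 CPM in T4A and 108 ± 2.25 CPM in WT (SD, n = 2). The log2 fold change was -0.55 ± 0.07 (SE), or 1.46-fold higher in WT (edgeR adjusted p = 2.91e-06). Like CLASP2, it was called under all 13 alternatives, with log2 fold changes between -0.63 and -0.45.

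MAPRE1 (ENSG00000101367.9, chr20:32819777-32850405), which encodes EB1, the main EB protein of dividing cells, had 155 and 148 CPM in T4A libraries and 169 and 159 CPM in WT libraries. The T4A values were slightly lower, with a log2 difference of -0.11 ± 0.05 (SE) that was not called (edgeR adjusted p = 0.140). It was called lower when libraries were scaled by their totals alone (log2 fold change -0.19, adjusted p = 0.0106) and when the trend with gene length was taken out (-0.24, adjusted p = 0.00301). The 3 processed copies of MAPRE1 in the genome, MAPRE1P1, MAPRE1P2 and MAPRE1P3, had between 0 and 2 counts in every library.

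MAPRE3 (ENSG00000084764.12, chr2:26970637-27027219), which encodes EB3, an EB protein best known from neurons and muscle, had 15.8 and 14.6 CPM in T4A libraries and 13.7 and 11.4 CPM in WT libraries. It was the one member with both T4A libraries above both WT libraries. The log2 difference of 0.27 ± 0.14 (SE) was not called (edgeR adjusted p = 0.181), and its 95% interval ran from -0.02 to 0.57.

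Per kb of exon, with all annotated exons of a gene joined, MAPRE1 made up 78.2% and 78.8% of the summed EB level in T4A libraries. In WT libraries it made up 75.3% and 75.2%. The share of MAPRE2 was 16.1% and 15.7% in T4A and 20.3% and 21.0% in WT. For MAPRE3 it was 5.64% and 5.49% in T4A, against 4.31% and 3.82% in WT. None of these 3 shares overlapped between the groups, but shares within a library add up to the whole and are not 3 separate observations. The count ratio of MAPRE2 to MAPRE1, which needs no scaling of libraries, was 0.493 and 0.478 in T4A cells and 0.647 and 0.669 in WT cells, a log2 difference of -0.44. That of MAPRE3 to MAPRE1 was 0.102 and 0.0989 in T4A cells, against 0.0811 and 0.0720 in WT cells, a log2 difference of 0.40. The trend of log2 fold change on gene length was not taken out of these ratios. Its value was -0.10 for MAPRE2, 0.13 for MAPRE1 and 0.05 for MAPRE3. Each ratio gave an exact permutation p = 0.33 (adjusted over the 6 pairs, 0.666), the smallest that 4 libraries allow. Of the 6 paralog pairs compared, these and CLASP2 to CLASP1 were the 3 whose groups did not overlap, and in the other 3 pairs they overlapped. With 2 libraries per group, a ratio that did not differ would separate the groups with a probability of 0.33.

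**Figure D2:**
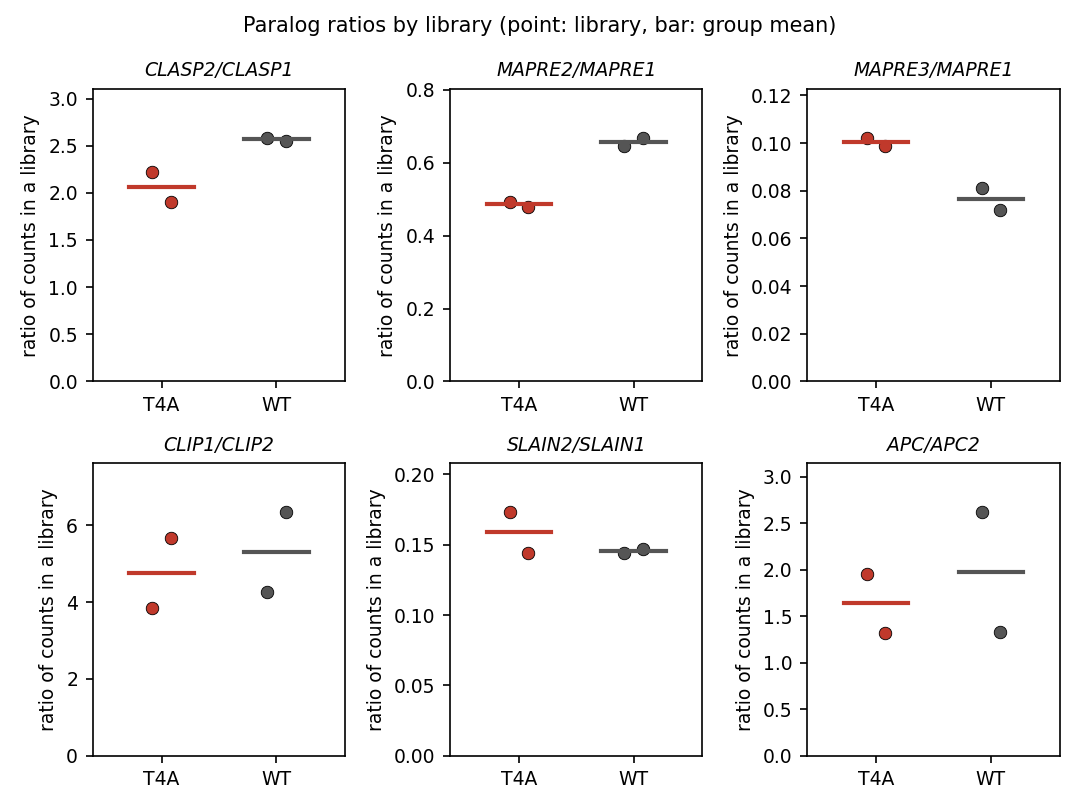
Count ratio of 2 paralogs within each library (y axis from 0) for the 6 pairs compared, with T4A on the left and WT on the right. Points are libraries and bars are group means. The MAPRE2 to MAPRE1 ratio was 0.493 and 0.478 in T4A and 0.647 and 0.669 in WT, and the groups overlapped in the 3 lower panels (CLIP1 to CLIP2, SLAIN2 to SLAIN1, APC to APC2) and in none of the 3 upper ones.

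CKAP5 (ENSG00000175216.15, chr11:46743048-46846280), the tubulin polymerase, had 47.9 and 47.7 CPM in T4A libraries and 57.8 and 60.2 CPM in WT libraries. The groups did not overlap, and the log2 fold change was -0.30 ± 0.08 (SE, edgeR adjusted p = 0.00637). The call was lost without WT library 2 (adjusted p = 0.0670) and with the length trend taken out (adjusted p = 0.439).

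SLAIN2 (ENSG00000109171.15, chr4:48341529-48426201), which joins CKAP5 to EB proteins and CLIP1, had 12.5 and 9.62 CPM in T4A libraries and 13.2 and 12.6 CPM in WT libraries. The upper T4A value came close to the lower WT value, and the log2 difference of -0.22 ± 0.16 (SE) was not called (edgeR adjusted p = 0.354). SLAIN1, its paralog, was more abundant in these cells, with 69.5 ± 3.91 CPM in T4A and 89.1 ± 4.30 CPM in WT (SD, n = 2), and it fell by 0.36 on the log2 scale (edgeR adjusted p = 0.000715). The count ratio of SLAIN2 to SLAIN1 overlapped between the groups, at 0.173 and 0.144 in T4A cells and 0.144 and 0.147 in WT cells (exact permutation p = 0.667). SLAIN2 itself differed by -0.43 without T4A library 1 and by -0.05 without T4A library 2, and was called in neither case.

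CLIP1 (ENSG00000130779.22, chr12:122271469-122422956), the gene of CLIP-170, had 17.0 and 20.3 CPM in T4A libraries and 20.7 and 22.4 CPM in WT libraries. Higher T4A and lower WT values nearly met, and the log2 difference of -0.21 ± 0.12 (SE) was not called (edgeR adjusted p = 0.226). It was called without T4A library 2 (-0.34, adjusted p = 0.0496), and without T4A library 1 the difference was -0.09 (adjusted p = 0.742). The antisense gene CLIP1-AS1 overlaps 470 of its exonic bases, or 2.53%. Its paralogs CLIP2, CLIP3 and CLIP4 were at 3.98, 2.48 and 3.09 CPM on average in T4A cells and 4.19, 3.13 and 3.88 CPM in WT, and none of them was called. The count ratio of CLIP1 to CLIP2 was 3.85 and 5.67 in T4A cells, against 4.25 and 6.35 in WT cells, so the groups overlapped (exact permutation p = 0.667).

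APC (ENSG00000134982.18, chr5:112707498-112846239) is a tumour suppressor that binds EB1 and microtubules and also scaffolds the breakdown of β-catenin. It had 11.1 and 8.03 CPM in T4A libraries and 13.9 and 10.9 CPM in WT libraries, so the groups overlapped. The log2 difference of -0.37 ± 0.18 (SE) was not called (edgeR adjusted p = 0.151), with a 95% interval from -0.74 to 0.00138. Without T4A library 1, which had the higher of the T4A values, the difference was -0.64 (adjusted p = 0.00463), while it was -0.16 (adjusted p = 0.563) without T4A library 2 and -0.17 (adjusted p = 0.745) without WT library 1. A protein-coding gene on the same strand, ENSG00000258864, overlaps 230 of the exonic bases of APC, or 1.69%, and had 0 counts in every library. APC had 253 and 151 counts in T4A libraries and 467 and 279 in WT libraries, and over all 4 libraries together it had the fewest of the 9 members. Its paralog APC2 was at 5.87 ± 0.266 CPM in T4A and 6.75 ± 2.04 CPM in WT (SD, n = 2), with a log2 difference of -0.19 that was not called (edgeR adjusted p = 0.615). The count ratio of APC to APC2 was 1.96 and 1.32 in T4A cells, against 2.62 and 1.33 in WT cells, and overlapped (exact permutation p = 0.667).

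**Figure D3:**
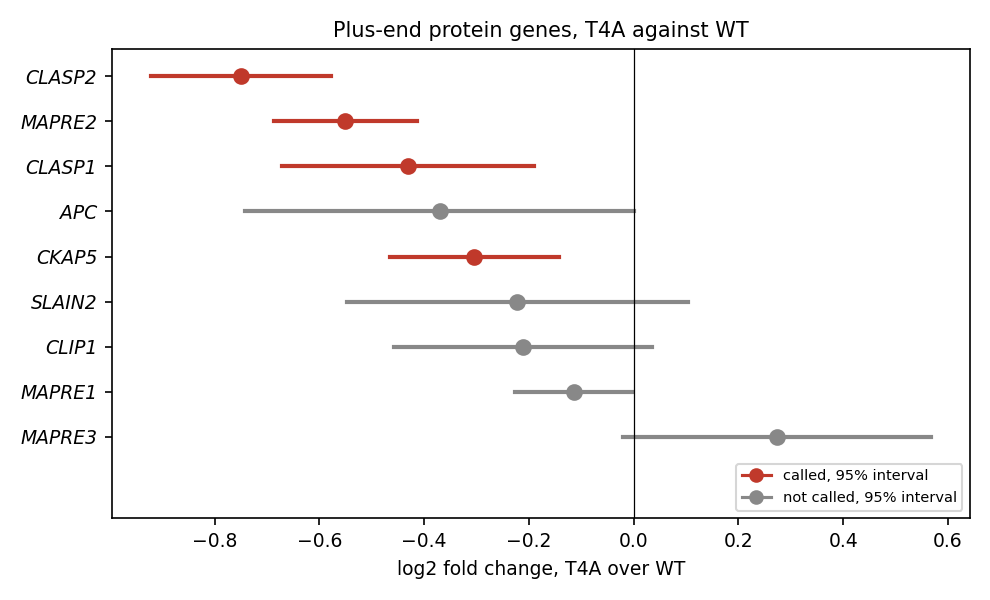
Log2 fold change of T4A over WT (x axis) for the 9 plus-end genes, ordered by size. Points are edgeR estimates from 2 libraries per group, bars are 95% intervals and red marks genes called at an adjusted p under 0.05. CLASP2 lies at -0.75 and MAPRE2 at -0.55, and MAPRE3 at 0.27 is the one point to the right of 0.

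Levels of different genes were compared per kb of annotated exon, joining all exons of a gene. Canonical transcripts make up unlike parts of this length, at 7159 of 15214 bases for CLASP2, 1890 of 3628 for MAPRE3 and 2562 of 2562 for MAPRE1. The order below may therefore depend on the length used. MAPRE1 was by far the most abundant, at 59.0 CPM per kb in T4A cells and 63.9 in WT cells, followed by MAPRE2, at 11.97 in T4A cells and 17.5 in WT cells, and CKAP5, at 5.59 in T4A cells and 6.91 in WT cells. APC was the lowest, at 0.704 in T4A cells and 0.911 in WT cells. The place of CLASP2 in this order was not the same in both groups. In T4A libraries it had 2.24 and 2.16 CPM per kb, below MAPRE3 with 4.36 and 4.01, whereas in WT libraries CLASP2 had 3.70 and 3.71 and MAPRE3 had 3.77 and 3.14, which overlapped. CLASP1 and SLAIN2 overlapped in both groups.

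Fold changes in this comparison moved with gene length, so each member was set against the trend over all tested genes. The loess curve of log2 fold change on exonic length was 0.13 at the length of MAPRE1 (2562 bases), the shortest member, and -0.29 at that of CLASP2 (15214 bases). CLASP2 lay below the curve, and so did MAPRE2, whose trend value was -0.10 at 6136 bases. CLASP1 and CKAP5 were nearer to it, with trend values of -0.25 and -0.20. CLIP1, the longest by this measure at 18596 bases, lay above its value of -0.30. These lengths join all annotated exons of a gene, and the canonical transcripts of CLIP1 and CLASP2 have 5978 and 7159 bases. A trend on transcript length was not tested. When the trend was taken out and the test repeated, CLASP2 (log2 fold change -0.46) and MAPRE2 (-0.45) stayed called, MAPRE1 was also called, CLASP1 (-0.18, adjusted p = 0.336) and CKAP5 were not, and CLIP1 changed sign (0.09). The members' median was then -0.11, beside 0.02 over all tested genes. What the length trend comes from was not tested.

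**Figure D4:**
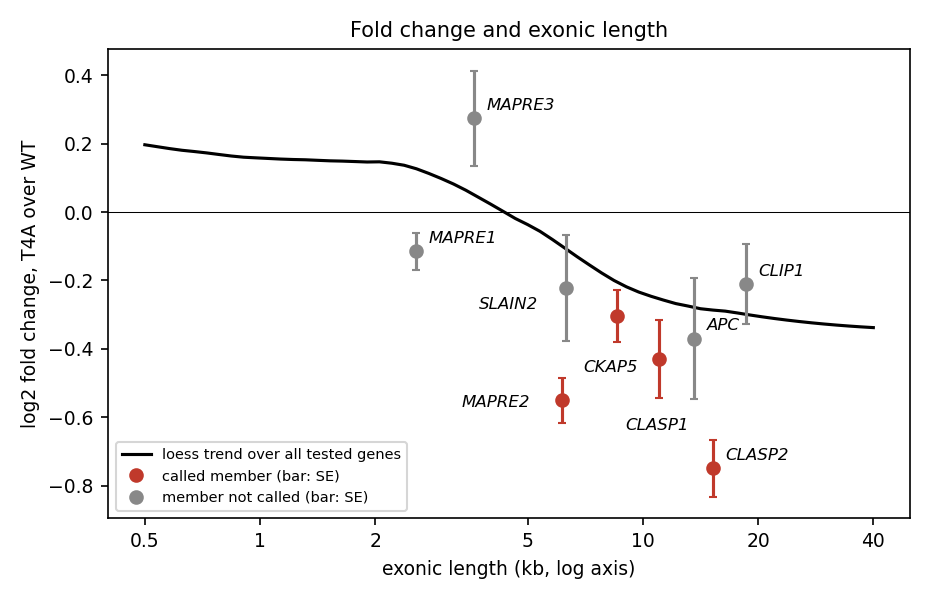
Log2 fold change of T4A over WT (y axis) against exonic length in kb (x axis, log scale). Points are the 9 plus-end genes with SE bars, red where called, and the line is the loess trend over all tested genes. CLASP2 (-0.75) and MAPRE2 (-0.55) lie well below the line, at -0.29 and -0.10, while CLIP1 (-0.21) lies above it.

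Since CLASP2 was named for its poly(A) sites, its annotated 3′ ends were examined as well. For a group of genes that includes CLASP2, the paper reports AU-rich sequences in the longest transcripts. It found none in the transcripts that end at nearer poly(A) sites. The paper predicted AU-rich elements with the ARED-Plus database, so the counts of the letters ATTTA below are a different measure. The 12 protein-coding CLASP2 transcripts with an annotated 3′ untranslated region in GENCODE release 44 end with 118 to 2386 bases of it. The longest form holds 9 copies of ATTTA, the core of AU-rich elements that bind regulators of messenger RNA decay. Forms of 876 and 1638 bases hold 4 and 6 copies, while the 5 forms of 118 to 387 bases hold none. The longest form has 3.77 copies per kb, against 2.28 over the canonical 3′ regions of 13487 tested protein-coding genes. The 2 copies with the most A and T around them are shown because the 5 shortest forms hold neither. Forms of 386 and 387 bases run past position 254 without an ATTTA, so their sequence there differs from that of the longest form. ATTTA is in capitals, and positions are counted from 1 at the first base of the longest 3′ region.
CLASP2 position 254: aatttttaATTTAattcatca
CLASP2 position 818: ttttttgtATTTAttaatatc
The longer element TTATTTATT was in the canonical 3′ region of none of the 9 members, and in 9.48% of those genes. Of the other members that fell, MAPRE2 had 1.29, CLASP1 1.62 and CKAP5 1.03 copies of ATTTA per kb. Members that were not called ranged from 2.39 for MAPRE1 to 5.69 for CLIP1. The deposited counts sum all 3′ ends of a gene, so use of one CLASP2 poly(A) site over another was not measured here.

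Genes with a pattern like that of CLASP2 were sought among 7087 protein-coding genes that averaged 10 CPM or more, by the root mean square difference of log2 CPM centred on each gene's mean over the 4 libraries. The 5 nearest were MKI67, the gene of the proliferation marker Ki-67 (difference 0.0123), BOD1L1 (0.0173), RNF213 (0.0190), MGAT5 (0.0191) and DYNC2H1 (0.0204). Their log2 fold changes lay between -0.79 and -0.74. All 5 were long, with exonic lengths of 8765 to 28592 bases, against a median of 4481 over all tested genes. MKI67 had 71.5 and 69.0 CPM in T4A libraries and 118 and 116 CPM in WT libraries. Over 4 libraries in 2 groups this likeness is a description of these samples.

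Among other plus-end proteins the called changes were all falls. Of 31 listed genes 27 were tested, of which 9 (33.3%) fell and none rose, beside 13% of all tested genes lower and 10.7% higher, with a median log2 fold change of -0.24. IQGAP1, a cortical scaffold that captures CLIP1 at the leading edge, was at 105 ± 0.686 CPM in T4A and 165 ± 1.73 CPM in WT (SD, n = 2), a log2 fold change of -0.65 (edgeR adjusted p = 2.77e-08). DST, a plakin that links microtubules to other filaments, had a log2 fold change of -0.69, TACC1, of a family that partners CKAP5, of -0.66, and DIAPH1, a formin, of -0.34. With the length trend taken out, 5 fell and 1 rose. NDE1 was listed at 0 in all 4 libraries.

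Most cortical partners that hold CLASPs at the cell edge fell. Of 9 such genes, 8 (88.9%) fell, beside 13% of all tested genes, and the median log2 fold change was -0.64. PPFIBP1, which encodes liprin-β1, was at 38.2 ± 2.23 CPM in T4A and 59.9 ± 0.0203 CPM in WT (SD, n = 2), a log2 fold change of -0.65 (edgeR adjusted p = 6.08e-06). PHLDB1, which encodes LL5α, a CLASP-binding membrane adaptor, fell by 1.01 on the log2 scale, PPFIA1, the gene of liprin-α1, by 0.48, and TLN1, the gene of talin, by 0.20. KANK1, which joins talin to this complex, was the exception, with a log2 difference of 0.01 (edgeR adjusted p = 0.985). Fewer were called without T4A library 1 (5), WT library 1 (5) or WT library 2 (4). With the length trend taken out 2 fell, and the exonic length of these 9 genes had a median of 11714 bases, against 4481 over all tested genes.

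Among partners of APC in β-catenin breakdown, 6 of 10 fell and none rose, beside 13% and 10.7% of all tested genes, with a median log2 fold change of -0.24. CTNNB1, the gene of β-catenin itself, was at 436 ± 8.83 CPM in T4A and 485 ± 9.19 CPM in WT (SD, n = 2), a log2 fold change of -0.15 (edgeR adjusted p = 0.00622). TNKS, whose product marks axin for degradation, had -0.60, and the kinase genes GSK3B and CSNK1A1 had -0.63 and -0.28. The count was 3 without T4A library 2, 1 without WT library 2 and 0 with the length trend taken out, where 1 of the 10 was called higher.

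Among proteins of the microtubule lattice and destabilisers there were calls in both directions. Of 22 listed genes 19 were tested, of which 3 (15.8%) rose and 4 (21.1%) fell, beside 10.7% and 13% of all tested genes, with a median log2 fold change of -0.16. STMN1, the gene of stathmin, which binds free tubulin and favours shrinkage, rose to 640 ± 19.6 CPM in T4A cells, against 541 ± 16.3 CPM in WT cells (SD, n = 2), a log2 fold change of 0.24 (edgeR adjusted p = 7.70e-05). Its relative STMN3 rose by 0.31, and MAP4 and EML4, which bind along microtubules, fell by 0.26 and 0.43 on the log2 scale. The number that fell was 2 without WT library 1 and 0 with the length trend taken out, where 4 rose.

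Of 14 genes of minus-end proteins and severing enzymes, 2 (14.3%) fell and none rose, which is near the 13% of all tested genes called lower, with a median log2 fold change of -0.18. NIN, the gene of the centrosomal protein ninein, had 37.6 ± 1.71 CPM in T4A and 53.6 ± 0.748 CPM in WT (SD, n = 2), a log2 fold change of -0.51 (edgeR adjusted p = 9.97e-05). ASPM, a spindle pole protein, fell by 0.89 on the log2 scale. FIGN and KATNA1, both severing enzymes, had log2 differences of -0.63 and 0.43 that were not called (edgeR adjusted p = 0.0554 and 0.118). The number that fell was 4 without T4A library 2, and it was 1 with the length trend taken out, where the median became 0.02.

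**Figure D5:**
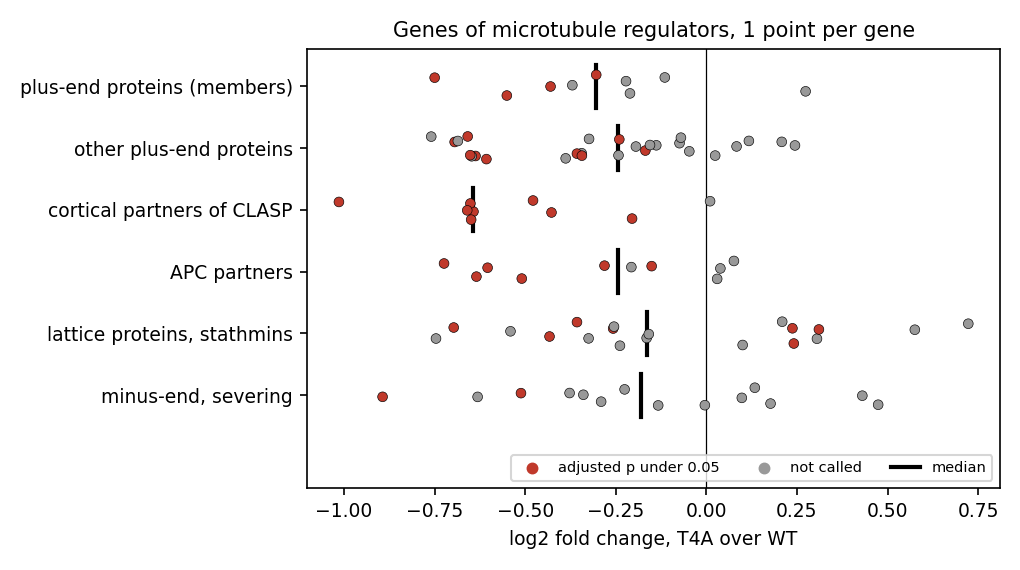
Log2 fold change of T4A over WT (x axis) for tested genes of the plus-end members and 5 other groups of microtubule regulators (y axis). Points are genes, red where called at an adjusted p under 0.05, and black bars are medians. The cortical partners have the lowest median, -0.64, and the called points to the right of 0 all belong to the lattice proteins and stathmins.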

How the data were processed

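Per the submitters' processing notes, reads were handled with Trimmomatic 0.38, HISAT2 2.2.1 and featureCounts 2.0.1 on hg38. Each library has a table of raw gene counts deposited by the authors, unnormalised and unpooled. Alignment was set as unstranded, and a strand setting for the counting is not stated. The treatment of multi-mapping reads is not given in the sources used for this work.

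Gene symbols and exonic lengths (the union of annotated exons) came from GENCODE release 44, in which 60877 of 62700 identifiers were found (the methods name an earlier release), and 99.49% of tested genes had a length. Gene spans and promoters came from RefSeq on GRCh38. Annotated 3′ regions were read from release 44 mapped to another build, so no positions on that build are given. Counts were filtered with filterByExpr and compared with TMM normalization and the quasi-likelihood test of edgeR 4.0.16 (limma 3.58.1, R 4.3.3), with Benjamini-Hochberg adjustment over 18139 genes. The common biological coefficient of variation was 0.114 with 17 prior degrees of freedom. SEs were obtained from the log2 fold change and its F statistic. CPM used TMM-scaled totals. Paralog ratios were formed from counts plus 0.5 within each library.

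The 9 members and the 5 other gene groups were chosen with earlier results of these data known. The text names every member and its paralogs, POLR2A, and up to 4 more genes of each group with the smallest p. KANK1, NDE1, LHX1 and COL1A2 were named after their values were seen.

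Alternatives were DESeq2 size factors, upper quartile and library totals as scaling, limma-voom, DESeq2 1.42.0, no filter or a minimum mean of 1 CPM, a replicate block, each library left out and the length trend taken out. The counts for the 5 groups under these settings were added after seeing the data.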

Additional observations from a re-analysis of the deposited data

How the results depend on the processing

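Replicate numbers did not pair the libraries, since deviations of same-numbered libraries from their group means correlated across genes at r = -0.00379. A replicate block gave 2012 genes higher and 2432 lower in T4A, beside 1935 and 2351 without it, and called the same number of members lower (4). Leaving out 1 library in turn gave 2 to 5 members called lower, with the 2 left without WT library 2. Taking out the length trend left 1391 genes called lower and gave CLIP1 a log2 difference of 0.088 in place of -0.21. The share of calls that were higher in T4A was 45.2% as reported, 61.0% with upper quartile scaling, 31.2% with library totals and 58.6% with the length trend taken out. MAPRE3 and SLAIN2 were called under none of the 13 alternatives, and DESeq2 gave no adjusted p for 6330 genes. With upper quartile scaling, 2 other plus-end genes and 1 minus-end gene were called higher and 3 APC partners lower. With 1 library left out in turn, 3 log2 ratio differences took both signs, ranging from -0.44 to 0.13 for CLIP1 to CLIP2, from -0.011 to 0.25 for SLAIN2 to SLAIN1 and from -0.70 to 0.28 for APC to APC2. Of the values recomputed under the alternatives, 293 kept their direction and their side of the threshold and 36 did not. Counts had to stay within 1.5 times. Paralog ratio differences, which have no threshold, had to keep their sign and move by less than the larger SD within a group. With 2 libraries per group, an exact test cannot go below p = 0.33, so all calls rest on a spread estimated across genes. At 151 to 467 counts, APC was measured with the widest error of the 9.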
